A study of Mus musculus with 2 samples.

Results

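The alarmin cytokine genes Il33 and Tslp and the genes of their receptor chains were followed in cultured mouse keratinocytes with and without an intended deletion of Pp6, the catalytic subunit gene of protein phosphatase 6. The 6 genes were taken by symbol from a table of 47719 genes, chosen by name when values of these same 2 libraries were already known: Il33 with the receptor genes Il1rl1 and Il1rap, and Tslp with the receptor genes Crlf2 and Il7r. All 6 were measured, and 5 had at least 1 CPM (reads scaled to a common library depth) in a library and are called expressed. Il7r was the exception. Because the choice was made with this comparison in view, the differences of the 6 genes are given as a description, without a test.

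Both groups were tail keratinocytes of 8 weeks old C57BL/6J mice, grown for 3 days in culture, and both carry the floxed allele. One library came from Pp6fl/fl cells, the control, and the other from K5.Pp6fl/fl cells, titled a cKO by the submitters. K5 is read here as the keratin 5 promoter driving a recombinase in basal keratinocytes, although the labels do not spell the driver out, and the number of mice behind each culture is not stated in them. With 1 library per genotype there is no spread between cultures, and every interval below (95%) covers counting error only.

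IL-33 and TSLP are cytokines that barrier epithelia make and that act on immune cells of the type 2 kind, such as mast cells, innate lymphoid cells and dendritic cells. IL-33 is stored in the nucleus, is released when cells are damaged, and signals through ST2, the product of Il1rl1, paired with the accessory chain encoded by Il1rap. TSLP is secreted and binds the chain encoded by Crlf2 paired with the IL-7 receptor alpha chain encoded by Il7r. In skin, keratinocytes are the known main source of TSLP in atopic inflammation.

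The regulatory sequence at the starts of Il33 and Il1rl1 is shown first, since both genes were higher in K5.Pp6fl/fl cells and each has 2 annotated starts, whose reads the table sums. The sequences are from RefSeq on GRCm38.p6, matched by symbol, and each gives the 250 bases before the start, 5′ to 3′. An entry was held for 5 of the 6 genes; that for Tslp was missing. Capitals mark TATAAA, the core of the TATA box.
Il33 upstream start, chr19:29924863-29925112, + strand: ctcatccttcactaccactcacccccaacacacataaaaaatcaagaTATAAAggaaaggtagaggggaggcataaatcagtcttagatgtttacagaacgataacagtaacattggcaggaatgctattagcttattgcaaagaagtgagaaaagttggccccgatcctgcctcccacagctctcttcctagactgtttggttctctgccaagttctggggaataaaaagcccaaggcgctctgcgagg
Il33 downstream start, chr19:29945540-29945789, + strand: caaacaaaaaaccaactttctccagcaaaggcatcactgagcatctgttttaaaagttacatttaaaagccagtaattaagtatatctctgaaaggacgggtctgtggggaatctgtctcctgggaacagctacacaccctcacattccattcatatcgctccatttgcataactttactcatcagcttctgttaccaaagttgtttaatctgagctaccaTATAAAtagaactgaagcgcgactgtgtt
Il1rl1 upstream start, chr1:40429320-40429569, + strand: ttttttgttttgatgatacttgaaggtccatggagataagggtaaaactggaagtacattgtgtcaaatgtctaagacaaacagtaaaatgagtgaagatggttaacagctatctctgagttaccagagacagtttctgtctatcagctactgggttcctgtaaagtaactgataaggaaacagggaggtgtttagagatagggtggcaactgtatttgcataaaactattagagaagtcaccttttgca
Il1rl1 downstream start, chr1:40439379-40439628, + strand: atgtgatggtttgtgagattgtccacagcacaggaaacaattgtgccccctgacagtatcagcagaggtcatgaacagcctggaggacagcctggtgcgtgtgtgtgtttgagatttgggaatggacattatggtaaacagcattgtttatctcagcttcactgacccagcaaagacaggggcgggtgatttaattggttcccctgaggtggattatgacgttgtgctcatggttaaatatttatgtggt

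The 2 starts of Il33 each had 1 TATAAA, which began 203 bases before the upstream start and 29 bases before the downstream one. Of 32851 RefSeq promoters, 12.4% held these letters on either strand of the same window. The AP-1 motif TGANTCA, held by 6.75% of promoters, the STAT motif TTCNNNGAA, held by 7.02%, and the NF-kB motif, held by 3.90%, had no match in the windows of Il33 and Il1rl1. No 2 of the motif matches found in these genes overlapped. The windows differed in base composition. G and C made up 45.2% and 39.6% at the Il33 starts and 37.6% and 46.4% at those of Il1rl1, against 74.4% for Il1rap and 71.6% for Crlf2, where the median of all promoters was 52.4%. In the Il7r window G and C made up 44.0%, and that window held 1 match of the STAT motif, which began 142 bases before the start. The windows of Il1rap and Crlf2 held no match of these motifs. Whether base composition goes with the differences between the libraries was not tested, and Tslp had no entry. The windows are letters of the reference, and the data hold no measure of promoter use.

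The targeted gene, named Ppp6c in the table, was at 55.5 CPM in Pp6fl/fl cells (1074 reads) and at 40.7 CPM in K5.Pp6fl/fl cells (707 reads), 0.733-fold (0.665 to 0.806). Per length it was at 30.6 and 16.8 FPKM, 0.548-fold, with an effective length 1.34 times as long in the K5.Pp6fl/fl library, and its log2 fold change in the authors' deposited table was -0.86. Transcript was therefore lower in the library labelled K5.Pp6fl/fl and still present in it, and no value per exon was at hand. The libraries held 19374772 and 17361257 estimated reads in genes. All 8 keratinocyte markers were expressed, and together they summed to 56868 CPM in Pp6fl/fl cells and 53379.7 CPM in K5.Pp6fl/fl cells, led by the basal keratins Krt14 and Krt5 and the hemidesmosome collagen Col17a1.

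Both alarmins were at least 2-fold higher in the K5.Pp6fl/fl library, and of the 2 receptor pairs only the ST2 gene Il1rl1 went with them, from few reads. A gene was counted as 2-fold apart when its log2 ratio, taken after adding 0.5 CPM to both values, reached 1 or -1, at least 1 library had 1 CPM or more and the counting interval excluded a fold of 1. By this rule 3 of the 5 expressed genes were higher and 0 lower. Over all 12325 expressed genes 0.811% were higher and 0.195% lower. The 3 genes entered the list with these values known, so nothing is read from that contrast of shares. The median log2 ratio of the 5 genes was 1.05, against -0.01 over all expressed genes.

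Il33 (ENSMUSG00000024810) was read 5880 times in Pp6fl/fl cells (5731 to 6032, exact Poisson) and 10929 times in K5.Pp6fl/fl cells (10725 to 11136). Scaled for depth, the level went from 304 to 629 CPM, 2.07-fold higher (2.0 to 2.14). The 2 intervals were far apart, and the K5.Pp6fl/fl library was the higher one. Per length the level went from 137 to 285 FPKM (fragments per kilobase of transcript, scaled for depth), above 94.2% of expressed genes in the Pp6fl/fl library and above 97.2% in the other. The table comprised 634 other expressed genes with a mean CPM within 2-fold of that of Il33, and 0 of them had a higher log2 ratio. Their middle 95% of log2 ratios ran from -0.27 to 0.48.

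Tslp (ENSMUSG00000024379) was read 310 times in Pp6fl/fl cells (276 to 347) and 727 times in K5.Pp6fl/fl cells (675 to 782). The level went from 16.0 to 41.8 CPM, a fold of 2.61 (2.28 to 2.99). The per-length level was 19.3 FPKM in Pp6fl/fl and 50.6 FPKM in K5.Pp6fl/fl cells, so Tslp moved from above 58.9% of expressed genes to above 82.4%. Of 4318 other expressed genes within 2-fold of its mean CPM, 3 had a higher log2 ratio. Il33 remained the more abundant alarmin: its FPKM was 7.07 times that of Tslp in the Pp6fl/fl library (6.31 to 7.95) and 5.62 times in the K5.Pp6fl/fl library (5.21 to 6.06). The read ratio of Il33 to Tslp differed between the libraries by a factor of 0.793, with an exact conditional interval of 0.689 to 0.910.

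**Figure D1:**
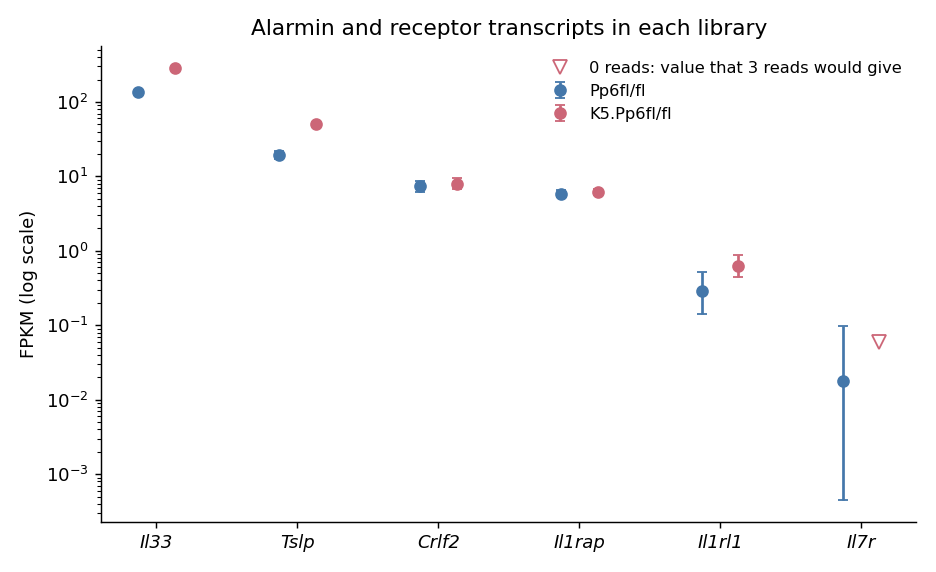
FPKM on a log axis of the 6 genes in the Pp6fl/fl library (blue) and the K5.Pp6fl/fl library (red), 1 library each, with bars for the exact 95% Poisson interval of the reads. Il33 (137 and 285) and Tslp (19.3 and 50.6) were higher in K5.Pp6fl/fl cells, Crlf2 (7.41 and 8.00) and Il1rap (5.87 and 6.18) differed little, and Il7r, with 0 reads in K5.Pp6fl/fl cells, is drawn there as an open triangle at the value 3 reads would give.

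The receptor genes stood well below the ligands. Il1rl1 (ENSMUSG00000026069), which encodes the IL-33-binding chain ST2, was read 11 times in Pp6fl/fl cells (5.49 to 19.7) and 34 times in K5.Pp6fl/fl cells (23.5 to 47.5). Its 0.568 and 1.96 CPM gave a fold of 3.44 (1.70 to 7.53). By reads and CPM the intervals did not overlap, with the K5.Pp6fl/fl library the higher one. Per length the levels were 0.287 FPKM (0.143 to 0.513) and 0.634 FPKM (0.439 to 0.886), whose intervals did overlap. They were above only 1.10% and 4.30% of the expressed genes. The plain fold of these FPKM values was 2.21. On the log2 scale the ratio of 1.20 fell below the 2-fold limit with 2 CPM added (0.62). It also did with FPKM in place of counts and 0.5 FPKM added (0.53), an addition larger than the Pp6fl/fl level itself.

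Counts and FPKM parted for Il1rl1, and with them the effective length by which the deposited FPKM divides. The effective length implied by the table was 1980 bases in the Pp6fl/fl library and 3089 in K5.Pp6fl/fl cells, a ratio of 1.56. Il1rl1 is known to make a membrane receptor and a shorter secreted decoy. The GENCODE vM21 annotation, which may not be the one used for the table, lists coding transcripts of 5302 and 5053 bases with a coding part of 1701 bases, and of 2661 and 1216 bases with a coding part of 1011 bases. Gene-level values from 11 and 34 reads do not give the share of each form. For Il33, Tslp and Crlf2 the effective lengths in K5.Pp6fl/fl over Pp6fl/fl had ratios of 0.997, 0.999 and 0.971.

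Il1rap (ENSMUSG00000022514), the accessory chain that ST2 shares with the IL-1 and IL-36 receptors, had 402 reads in Pp6fl/fl (364 to 443) and 418 in K5.Pp6fl/fl cells (379 to 460). At 20.8 and 24.0 CPM the fold was 1.16 (1.01 to 1.33), far short of 2-fold. The FPKM values, 5.87 and 6.18, were closer still, with an effective length of 3534 bases in one library and 3893 in the other. Its transcripts outnumbered those of Il1rl1 per length, 20.5-fold in the Pp6fl/fl library (11.3 to 41.4) and 9.76-fold in the K5.Pp6fl/fl library (6.87 to 14.3). An antisense gene, Gm20319, overlaps the span of Il1rap and had 15 and 9 reads assigned to it. A non-coding gene on the opposite strand, 4930455D15Rik, overlaps the span of Tslp and had 0 reads in both libraries. Whether either pair of genes shares exon sequence was not examined. Strand-blind libraries could not separate reads of a shared exon.

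The TSLP-binding chain gene Crlf2 (ENSMUSG00000033467) was the flattest of the expressed members. It was read 149 times in Pp6fl/fl cells (126 to 175) and 140 times in K5.Pp6fl/fl cells (118 to 165). The level was 7.70 CPM in the former and 8.05 CPM in the latter, 1.05-fold (0.824 to 1.33). The intervals overlapped almost whole, and the interval of the fold lay on both sides of 1, so that no difference was detectable at this depth. At 7.41 and 8.00 FPKM it stood slightly above Il1rap, by 1.26-fold (1.04 to 1.53) and 1.29-fold (1.06 to 1.57), intervals that leave out any error of the lengths.

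Il7r (ENSMUSG00000003882), whose product completes the TSLP receptor and also binds IL-7, had 1 read in Pp6fl/fl cells and 0 in K5.Pp6fl/fl cells. The single read gave 0.0517 CPM (0.00131 to 0.288), and a count of 0 was given a limit of 3 reads, 0.173 CPM, which is a floor and not the upper end of the Poisson interval (3.69 reads, 0.212 CPM). No fold is given at these counts. The common gamma chain gene Il2rg, which pairs with Il7r in the IL-7 receptor and was named after its values were seen, had 23 and 18 reads (1.19 and 1.04 CPM). In order of FPKM, both libraries ran Il33, Tslp, Crlf2, Il1rap, Il1rl1 and Il7r, and Crlf2 and Il1rap were the neighbours whose intervals overlapped.

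**Figure D2:**
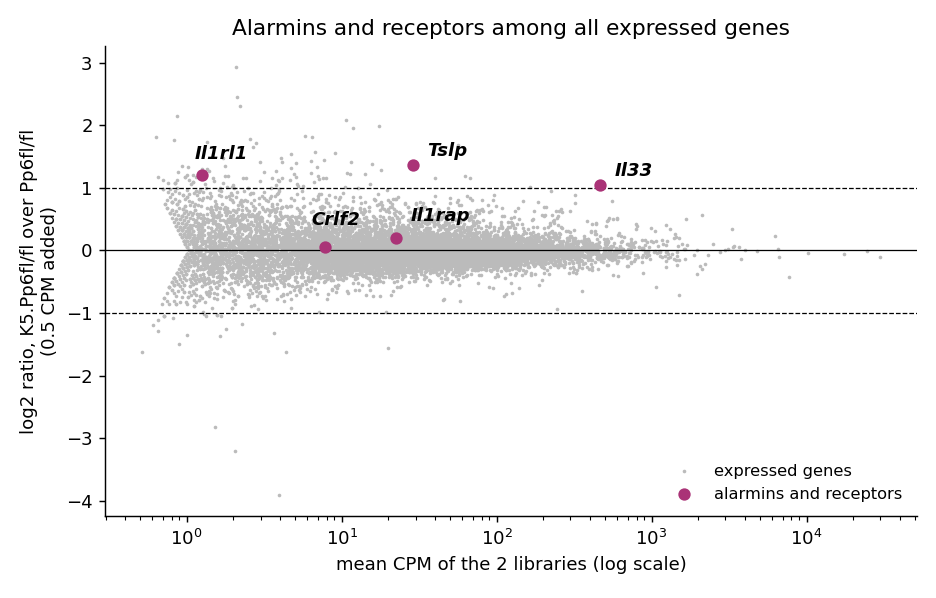
Log2 ratio of K5.Pp6fl/fl over Pp6fl/fl (0.5 CPM added) against the mean CPM of both libraries on a log axis, for 12325 expressed genes (grey) and the 5 expressed alarmin and receptor genes (purple); dashed lines mark a 2-fold difference. Il33 lies at 1.05 above all genes of like abundance, Tslp at 1.36 and Il1rl1 at 1.20, the last where low counts spread all genes, and Crlf2 (0.06) and Il1rap (0.21) lie in the main band.

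Ligand was then related to receptor within each library, on the per-length scale. The FPKM of Il33 was 477 times that of Il1rl1 in the Pp6fl/fl library (266 to 956) and 449 times in K5.Pp6fl/fl cells (321 to 648). These intervals overlapped. By reads the ratio of Il33 to Il1rl1 in K5.Pp6fl/fl over that in Pp6fl/fl was 0.601, with an exact conditional interval of 0.275 to 1.22 that included 1. Against the accessory chain the picture differed. Il33 over Il1rap was 23.3 (21.0 to 25.8) and 46.0 (41.7 to 50.8), and by reads the ratio differed 1.79-fold between the libraries (1.55 to 2.06).

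For the TSLP pair the ratio to the binding chain was much smaller. Tslp over Crlf2 was 2.61 in the Pp6fl/fl library (2.14 to 3.19) and 6.33 in K5.Pp6fl/fl cells (5.27 to 7.64). The read ratio was 2.5-fold higher in K5.Pp6fl/fl cells (1.89 to 3.29). Tslp over Il7r was 1089 in the Pp6fl/fl library, with an interval of 194 to 43133 since it rests on 1 read. In the K5.Pp6fl/fl library Tslp was at least 851-fold higher than Il7r, taking the measured Tslp level, without its counting error, over Il7r at the floor of 3 reads and the effective length of the other library. A read ratio of 2 genes within a library does not depend on how the libraries are scaled to each other.

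**Figure D3:**
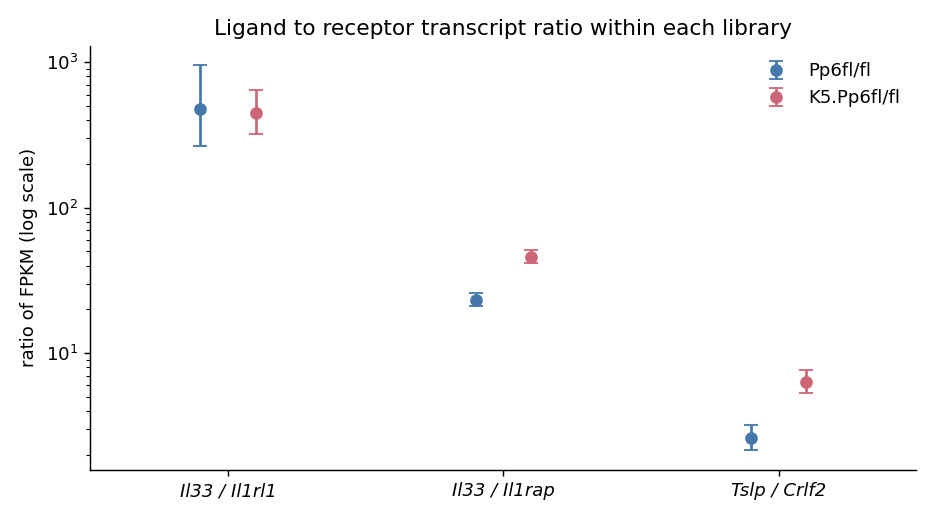
Ratio of ligand FPKM to receptor FPKM within the Pp6fl/fl library (blue) and the K5.Pp6fl/fl library (red) on a log axis, 1 library each, with exact conditional 95% intervals from the reads. Il33 over Il1rl1 was 477 and 449 with overlapping intervals, and Il33 over Il1rap (23.3 and 46.0) and Tslp over Crlf2 (2.61 and 6.33) were higher in K5.Pp6fl/fl cells.

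The pathway genes around these receptors were described from 7 lists of 111 genes, of which 83 were expressed. Of these 3 were 2-fold higher (3.61%) and 0 lower, where 0.811% of all expressed genes were higher and 0.195% lower. Their median log2 ratio was 0.02, against -0.01 over all expressed genes. The lists were chosen with earlier results of these data known, so the shares are a description only. All 16 genes of ST2 receptor signalling were expressed and none was 2-fold apart, with a median of -0.04 and a range from -0.18 to 0.22. The inhibitor of NF-kB Nfkbia was 1.17-fold higher (1.11 to 1.22), from 165 to 193 CPM, and the NF-kB subunit gene Rela stood 0.914-fold (0.865 to 0.965), from 150 to 137 CPM. The adaptor gene Myd88, named after its values were seen, was at 25.1 and 24.9 CPM, 0.994-fold with an interval (0.871 to 1.13) on both sides of 1.

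For TSLP and IL-7 receptor signalling 16 of 17 genes were expressed, with a median of -0.05. None was 2-fold apart, where 1.01% of all expressed genes were. The kinase gene Jak1 went from 221 to 229 CPM, 1.04-fold (0.992 to 1.08), and the survival gene Mcl1 from 228 to 222 CPM, 0.975-fold (0.934 to 1.02). Of the 2 genes for the STAT5 transcription factors, named after their values were seen, Stat5a had a fold of 0.742 (0.612 to 0.898) and Stat5b of 0.903 (0.821 to 0.994). Both were lower by under 2-fold.

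Among the partner and related receptors none was 2-fold apart, where 1.01% of all expressed genes were. Of the 17 genes of this list 10 were expressed, with a median of 0.04. The IL-36 receptor gene Il1rl2, whose product also pairs with that of Il1rap, was the most abundant of these per length with Il6st, the shared chain gp130 of IL-6 family receptors. Il1rl2 was at 37.7 and 29.1 FPKM, and its CPM fold was 0.804 (0.744 to 0.868). Il6st was at 34.3 and 32.0 FPKM, with a CPM fold of 0.955 (0.912 to 0.999). The IL-1 receptor gene Il1r1, named after its values were seen, was at 6.15 and 5.32 FPKM, close to Il1rap. Among the genes whose products pair with that of Il1rap, Il1rl1 was thus the lowest of the 3 per length in both libraries.

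Other epithelial cytokine genes and ligands were higher in K5.Pp6fl/fl cells more often than not. Of 11 genes 9 were expressed and 2 were 2-fold higher, where 0.811% of all expressed genes were. Of the 9, 7 had an interval above 1 and 0 had one below, where 16.6% and 17.4% of all expressed genes did. The median log2 ratio was 0.70. This list too was chosen with earlier results of these data known, so nothing is read from the contrast of shares. Il18 and Il1f6, which encodes IL-36 alpha, were the 2 past the rule, from 8 and 7 reads in the Pp6fl/fl library to 27 and 23. The following were named after their values were seen. Il1a, an IL-1 cytokine stored by keratinocytes, went from 26.1 to 42.5 CPM, 1.63-fold higher (1.45 to 1.83). The IL-1 receptor antagonist gene Il1rn was 1.79-fold higher (1.51 to 2.13). Il7, the other ligand of the Il7r product, had 11 and 24 reads, a fold of 2.43 (1.15 to 5.49), and missed the 2-fold rule once 0.5 CPM was added. Il25, a further type 2 alarmin of epithelia, had 0 reads in both libraries. The floor of 3 reads stood at 0.155 CPM in Pp6fl/fl and 0.173 CPM in K5.Pp6fl/fl cells.

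**Figure D4:**
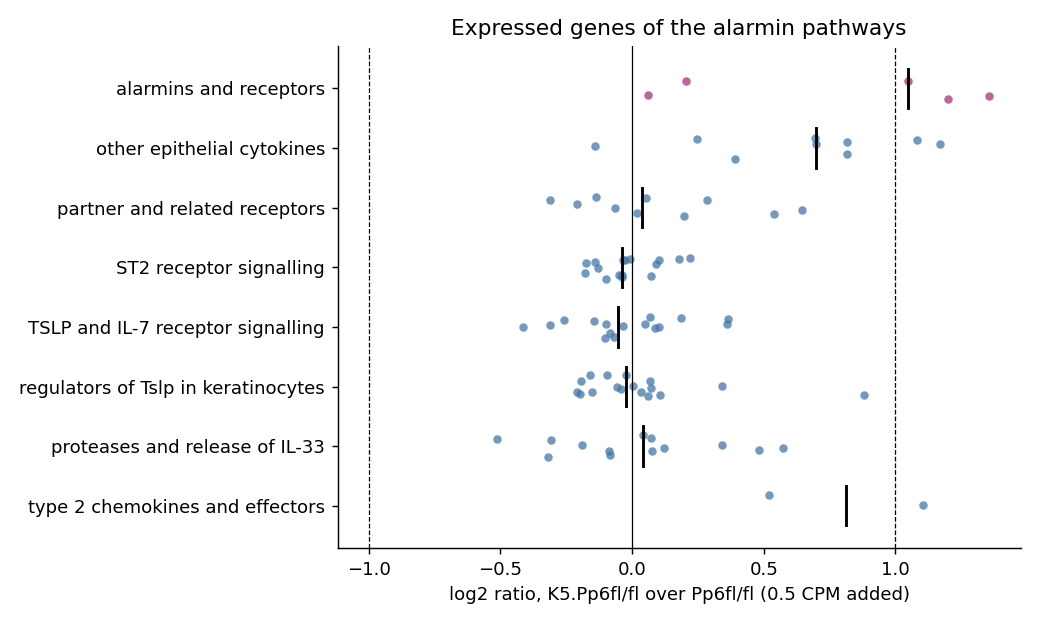
Log2 ratio of K5.Pp6fl/fl over Pp6fl/fl (0.5 CPM added) of each expressed gene in the alarmin list (purple) and in 7 pathway lists (blue), with black bars for medians and dashed lines at a 2-fold difference; vertical scatter is only for legibility. The signalling lists centre near 0 (medians -0.04 and -0.05), and the other epithelial cytokines lie mostly to the right (median 0.70).

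Known regulators of Tslp in keratinocytes had a median log2 ratio of -0.02, against -0.01 over all expressed genes. Of 20 genes 17 were expressed and none was 2-fold apart, where 1.01% of all expressed genes were. Of the 17, 3 had an interval above 1 and 4 one below, where 16.6% and 17.4% of all expressed genes did. Spink5, an inhibitor of the kallikrein proteases that act upstream of Tslp through the receptor PAR2, had the largest log2 ratio of the list. It went from 227 to 417 CPM, 1.84-fold higher (1.77 to 1.91). Notch1, a receptor of epidermal differentiation, stood at 548 and then 574 CPM, 1.05-fold (1.02 to 1.08). The PAR2 gene F2rl1 and the vitamin D receptor gene Vdr, named after their values were seen, had folds of 0.970 (0.906 to 1.04) and 1.04 (0.992 to 1.09).

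Of 18 genes for the cleavage and release of IL-33, 13 were expressed and none was 2-fold apart, where 1.01% of all expressed genes were. The median log2 ratio was 0.04, with a range from -0.51 to 0.57. Of the 13, 3 had an interval above 1 and 5 one below, where 16.6% and 17.4% of all expressed genes did. The calpain subunit genes Capns1 and Capn2 led by level, with folds of 0.94 (0.913 to 0.968) and 1.03 (1.01 to 1.05). The neutrophil and mast cell proteases that cut IL-33, encoded by Elane, Ctsg and Cma1, had 0 reads in both libraries. Of 12 type 2 chemokine and effector genes only 2 were expressed, and 1 was 2-fold higher, where 0.811% of all expressed genes were. It was Ccl20, a chemokine for cells with CCR6, at 0.775 and 2.24 CPM from 15 and 39 reads. Its fold was 2.89 (1.56 to 5.65). The other, Postn, named after its values were seen, had 18 and 27 reads and a fold of 1.67 (0.886 to 3.22).

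The genes closest to each alarmin in log2 ratio, among those within 2-fold of its mean CPM, were taken as a description over 2 libraries. For Il33 they were Spink5 (log2 ratio 0.88), the tight junction gene Cldn1 (0.79) and the prostaglandin synthase gene Ptgs2 (0.75). All 3 were lower in ratio than Il33 itself. For Tslp they were the amino acid transporter gene Slc6a14 (1.38), the cytochrome P450 gene Cyp2b10 (1.29) and the immediate early gene Egr1 (1.15). The genes closest to Il1rap (Ptpn6, Snx7 and Zdhhc20) and to Il1rl1 (Gm28037, Gm16192 and Sorcs2) were each at most 0.0102 from it.

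Markers of other skin cells were read beside the receptors, since ST2 and the TSLP receptor are known from immune cells. In bulk RNA, fewer cells of a type and less RNA per cell cannot be told apart. Of 9 mast cell and basophil markers 8 had 0 reads in both libraries, Cpa3 and Fcer1a among them, and the only other one, Kit, had 1 and 6 reads. Of 13 T cell and innate lymphoid cell markers 7 had 0 reads in both, including Ptprc, Cd3e and Cd4. The summed level of 62.0 and 68.7 CPM came mainly from Gata3 (22 and 25 CPM) and Rora (36.4 and 41.0 CPM), with Thy1 at 2.69 and 1.78 CPM. The Langerhans and dendritic cell markers Cd207, Cd74, Flt3, H2-Aa, H2-Ab1 and Itgax had 0 reads in both libraries, H2-Eb1 had 4 and 2 reads and Ccr7 3 and 0. Their summed level of 67.9 and 125 CPM was almost all Epcam, an adhesion gene also of epithelia (67.5 and 124 CPM).

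The macrophage and neutrophil markers summed to 30.0 and 25.4 CPM, nearly all from Cd68, a lysosomal gene, with Itgam at 3 and 6 reads, Csf1r at 1 read in each, and Adgre1, Csf3r, Fcgr1, Ly6g and Lyz2 at 0 in both. Fibroblast markers summed to 3.46 and 2.76 CPM, with Thy1 foremost, Pdgfra at 7 and 10 reads, Dcn at 4 and 1, and Dpt and Lum at 0. Endothelial markers summed to 6.46 and 8.69 CPM, of which Egfl7 gave 5.22 and 6.79, with Pecam1 at 11 and 17 reads, Vwf at 5 and 7, and Cldn5 and Emcn at 0. Of 8 melanocyte markers 5 were expressed and 0 were at 0 reads, and their sum was 14.8 CPM in Pp6fl/fl and 22.1 CPM in K5.Pp6fl/fl cells, a ratio of 1.49. By the 2-fold rule 0 of the 5 were higher and 0 lower, where 0.811% and 0.195% of all expressed genes were. Over all expressed genes 16.6% had an interval above 1 and 17.4% one below. Of the 5 markers 3 had an interval above 1 and 2 an interval that included 1. The melanosome genes Pmel (2.17 and 4.83 CPM) and Tyrp1 (2.48 and 4.95 CPM) were among the 3. The melanocyte factor gene Mitf, the most abundant of the markers by CPM, was at 7.03 and 6.33 CPM, 0.900-fold (0.694 to 1.17). The part of melanocytes in the values of Il33, Tslp and Il1rl1 was not tested.

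In the authors' deposited table the log2 fold changes were 1.06 for Il33, 1.38 for Tslp, 0.92 for Il1rl1, 0.07 for Il1rap and 0.11 for Crlf2. In the authors' deposited table Tslp came first, Il33 came before Il1rl1 and Crlf2 before Il1rap. The log2 ratios by FPKM, with 0.5 FPKM added, had the same order. They were 1.37 for Tslp, 1.05 for Il33, 0.53 for Il1rl1, 0.10 for Crlf2 and 0.07 for Il1rap. Both sets of values were deposited by the authors for the same 2 libraries or computed from such values, so the shared order is not an independent check. By counts with 0.5 CPM added Il1rap (0.21) came before Crlf2 (0.06). The order of Tslp, Il33 and Il1rl1 by counts depended on the CPM added. Il1rl1 was above Tslp by the plain fold (3.44 against 2.61) and on the log2 scale with 0.1 CPM added (1.62 against 1.38), between Tslp and Il33 with 0.5 CPM, and below both with 2 CPM. The p-values of the authors' deposited table compare 1 library with 1 and are not used here.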

How the data were processed

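Polyadenylated RNA was made into TruSeq libraries, per the labels' protocols, with no step that marks the strand. The submitters' processing notes name RSEM, edgeR and build mm8, without versions or roles. The aligner and annotation are not given in the sources. The expected counts were deposited by the authors after each column had been multiplied by 1 constant. Divided by a step per column (0.946 and 1.057), 97.3% of the Pp6fl/fl and 97.4% of the K5.Pp6fl/fl values under 100 reads were whole within 0.01 reads, and the quotients were rounded and used as reads. The design had assumed that such reads could be recovered where the values allow it. FPKM was deposited by the authors and used as it stands, and the log2 fold changes and p-values of the authors' deposited table come per the file headers. Symbols were matched to 47219 of 47719 gene IDs, and genes without a symbol held 0.105% and 0.106% of the reads.

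CPM was computed with TMM factors from edgeR 4.0.16 (R 4.3.3). Folds have exact conditional binomial (Clopper-Pearson) intervals, single counts exact Poisson intervals, and changes of a read ratio exact conditional odds ratio intervals (scipy 1.17.1). Intervals treat reads as independent, which reads that carry no molecular identifier need not be. The fold script was tested on simulated counts. The genes, lists and rules were chosen with earlier results of these data known. Named are the 6 genes and Ppp6c, in each pathway list up to 4 members past the 2-fold rule or otherwise the 2 most abundant by FPKM, in each marker list the 3 most abundant, and the 3 genes nearest in ratio to each expressed member (those of Crlf2 are not reported here). Alternatives were other scaling, pseudocounts, floors, FPKM and length measures.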

Additional observations from a re-analysis of the deposited data

How the results depend on the processing

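No replicate could be left out and no paired analysis was possible because each genotype has 1 library, and counting intervals leave out the spread between cultures. Il33, Tslp, Il1rap and Crlf2 stayed within their counting intervals under DESeq2 size factors, upper quartile factors, total counts, the columns as deposited, pseudocounts of 0.1 and 2 CPM, and FPKM. The log2 ratio of Il1rl1, 1.20, became 0.62 with 2 CPM added and 0.53 by FPKM with 0.5 FPKM added. In these settings 2 in place of 3 members passed the 2-fold rule, as with a floor of 5 CPM. Over all genes, 100 higher and 24 lower became 173 and 57 with 0.1 CPM added, 33 and 5 with 2 CPM, and 49 and 4 with a floor of 5 CPM. In CPM per kilobase of the longest annotated transcript, Il33 over Il1rl1 was 1114 in Pp6fl/fl and 669.9 in K5.Pp6fl/fl, and Il33 over Il1rap 26.0 in Pp6fl/fl. In CPM with no length correction, Il33 over Il1rap was 14.6 and 26.1, and Tslp over Crlf2 2.08 and 5.19. These alternatives change the length by construction. The other 65 of the recomputed values stayed within the interval of the value reported or, for counts, within 1.5 times.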
